A study of Mus musculus with 15 samples.

Results

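The zinc finger genes named Zfp followed by a number were described in 15 Tomato+ cells, each picked singly from the inguinal white fat of mice. They were taken by symbol from the deposited expression table, with Zfp423 left out, which gave 121 of 8446 rows. The symbol alone chose them among these rows, though the set was named with earlier results of these data known. The reference lists 416 Zfp symbols, and genes without a row are not counted. The shares below therefore hold only for genes in the table. The cells came from adult C57BL/6 mice of the genotype Prrx1-CreERT;Tomato, in which Cre recombinase under Prrx1 control is active only with tamoxifen and leaves a lasting Tomato mark. Every mouse had received tamoxifen at 2 mg per 30 g of body weight daily for 3 days, and no untreated or Tomato-negative cells were compared. The fat was digested with collagenase, Tomato+ cells were sorted, and single cells were picked under a fluorescence microscope. The 15 cells form 1 group, numbered 1 to 15, and the labels name no animal. The cells therefore count as 1 sample with no replicate error, and values are given per cell without p-values.

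Zinc fingers are short protein folds in which cysteine and histidine side chains hold a zinc ion. In the C2H2 type, a pair of cysteines and a pair of histidines hold it, and rows of such fingers read DNA sequence. Many C2H2 proteins also carry a KRAB domain, which recruits the co-repressor Trim28 and through it the histone methyltransferase Setdb1, and these proteins are best known for silencing retroelements. The CCCH type, found in Zfp36 and its relatives, binds AU-rich stretches in messenger RNA instead and brings in the CCR4-NOT deadenylase, which shortens the message. The symbol Zfp thus covers proteins of different kinds, among them transcription factors, RNA-binding proteins and ubiquitin ligases.

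The coding stretches of a first finger of the common members are shown because they separate the RNA-binding from the DNA-binding type. They are from the GENCODE M21 transcripts on GRCm38, written 5′ to 3′ on the coding strand, with the codons of the zinc-holding cysteines and histidines in capitals. All 6 lie within 1 coding exon each.
Zfp36: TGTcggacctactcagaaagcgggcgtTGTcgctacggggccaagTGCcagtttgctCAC
Zfp36l1: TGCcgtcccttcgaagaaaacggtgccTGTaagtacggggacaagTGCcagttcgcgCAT
Zfp36l2: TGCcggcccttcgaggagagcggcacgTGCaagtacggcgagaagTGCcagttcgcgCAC
Zfp68: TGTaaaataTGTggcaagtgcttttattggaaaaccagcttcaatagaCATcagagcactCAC
Zfp260: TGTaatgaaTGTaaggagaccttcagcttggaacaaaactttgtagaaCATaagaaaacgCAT
Zfp637: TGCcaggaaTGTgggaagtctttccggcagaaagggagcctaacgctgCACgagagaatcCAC

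The Zfp36 stretch lies at chr7:28378158-28378217 in exon 2 of 2, on the minus strand. Those of Zfp36l1 and Zfp36l2 lie at chr12:80110189-80110248 and chr17:84186668-84186727, both in exon 2 of 2 on the minus strand. The C2H2 stretches lie at chr5:138607043-138607105 for Zfp68 (minus strand, exon 6 of 6), chr7:30104749-30104811 for Zfp260 (plus strand, exon 3 of 3) and chr6:117845186-117845248 for Zfp637 (plus strand, exon 3 of 3). Of the 20 residues of the CCCH stretch, Zfp36l1 and Zfp36l2 share 17, and Zfp36 shares 13 with Zfp36l1 and 14 with Zfp36l2. The 3 C2H2 stretches share only 6 to 9 of 21 residues with each other, 4 of them the cysteines and histidines that define the finger.

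Values are log2(FPKM + 1), where FPKM is the fragments per kilobase of transcript, scaled to the mapped reads of a cell. Detection here means at least 1 FPKM, which is a value of 1. The deposited values follow the same distribution in each cell, so every cell has 4369 rows detected and the number of Zfp genes per cell is a share of that fixed total. Read depth is unknown. A cell had 930 to 1974 rows at its own minimum. The cells carried stromal markers, cell 13 less than the others: all 10 stromal markers looked up were detected in 12 or more cells, with medians of 11.49 for the collagen Col3a1 and 7.87 for the progenitor marker Cd34. Pdgfra was detected in 14 cells and Prrx1, whose control drives the Cre, in 12. Cell 13 was the lowest cell for 6 of the 10, with Col1a1 at 2.00, but the highest for Vim (12.02). It had Pdgfra and Prrx1 below 1 FPKM (0.20 and 0.43). Prrx1 was also below 1 FPKM in cells 3 and 12 (0.68 and 0.22). Cells 5 and 13 carried mural markers: Higd1b stood at 10.98 and 10.68, Rgs5 at 10.18 and 6.90, and Kcnj8 at 6.53 and 9.43. Abcc9 was at 5.68 and 1.68, and Acta2 at 10.23 in cell 5 but only 0.45 in cell 13. The junction gene Esam, an endothelial marker, stood at 10.90 in cell 13 and 7.83 in cell 5. The endothelial marker Tek was below 1 FPKM in both cells. Of 4 Schwann markers 2 had a row: Mbp was detected in 13 cells (median 2.06) and S100b in 6 (median 0.56). Of 5 immune, 5 endothelial and 6 mature adipocyte markers, 1, 2 and 2 had a row, none of them detected in 8 or more cells.

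Most Zfp genes were detected in a minority of cells. A Zfp gene was detected in a median of 4 of 15 cells, against 7 for all rows of the table. Only 8 of the 121 (6.61%) were detected in 12 or more cells, where 26.6% of all rows were. A further 13 (10.7%) were detected in 8 to 11 cells, where 20.1% of all rows were, and 47 (38.8%) in 4 to 7 cells, where 31.3% of all rows were. The others were 52 detected in 1 to 3 cells and 1 in none (0.826%, against 1.01% of all rows). The narrow class of 1 to 3 cells thus held 43.0% of the Zfp genes and 20.9% of all rows. A single gene, Zfp36, was detected in all 15 cells (0.826%, against 12.1% of all rows), and 8 were detected in 1 cell (6.61%, against 4.01%). In all, 604 of the 1815 values of Zfp genes (33.3%) reached 1 FPKM, where 51.7% of all values did. The Zfp genes are longer, with a median exon length of 5259 bases against 4414 for all rows with a length. FPKM divides by length, and the part of length in these shares was not tested.

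**Figure D1:**
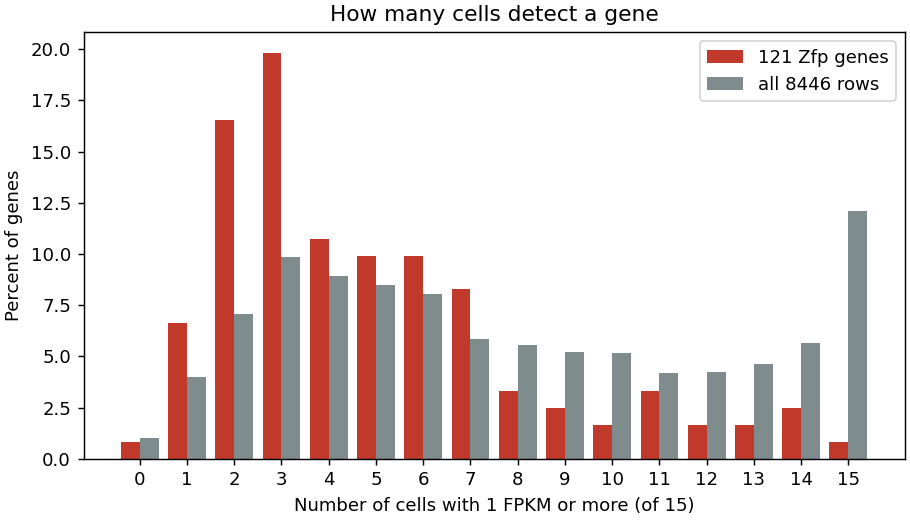
Percent of genes (vertical axis) by the number of cells with 1 FPKM or more (horizontal axis, 0 to 15), for the 121 Zfp genes and all 8446 rows. The Zfp genes are piled up at 2 to 7 cells, and 0.826% of them against 12.1% of all rows stand at 15 cells.

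Other zinc finger families in the table differed from each other in the same count. The 22 genes named Zbtb, Zkscan or Zscan, which are also C2H2 factors, were detected in a median of 3 cells, with 4 of 22 in 8 or more. The 15 genes named Klf, Sp or Egr, C2H2 factors with few fingers, were detected in a median of 10 cells, with 10 of 15 in 8 or more. The Zfp genes, with 21 of 121 in 8 or more cells (17.4%, against 46.8% of all rows), stood near the first of these families. The general transcription machinery gives a scale for low but widely used genes. Its 19 analysed genes were detected in a median of 7 cells, and Tbp, the TATA-binding protein that every cell uses, in 3. A value near 0 therefore cannot be read as absence of a Zfp gene from a cell.

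Where a Zfp gene was on, its level was close to that of other genes of like breadth in the narrow and middle classes. The 52 genes detected in 1 to 3 cells had a median of 3.86 in the cells that detected them, and 45 of them reached 5 FPKM (2.58) in at least 1 cell. All rows detected in 1 to 3 cells had a median of 3.80 where detected, and 1612 of these 1768 reached 5 FPKM. The 60 Zfp genes detected in 4 to 11 cells had a median of 3.57 where detected, against 3.86 for all such rows, and the 8 broad genes one of 4.98. All rows detected in 12 to 15 cells stood at 6.19 where detected, above the broad Zfp genes. The median of the highest value of a gene was 4.66 in the narrow and 6.20 in the middle class of Zfp genes, and 4.94 and 6.15 for all rows.

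**Figure D2:**
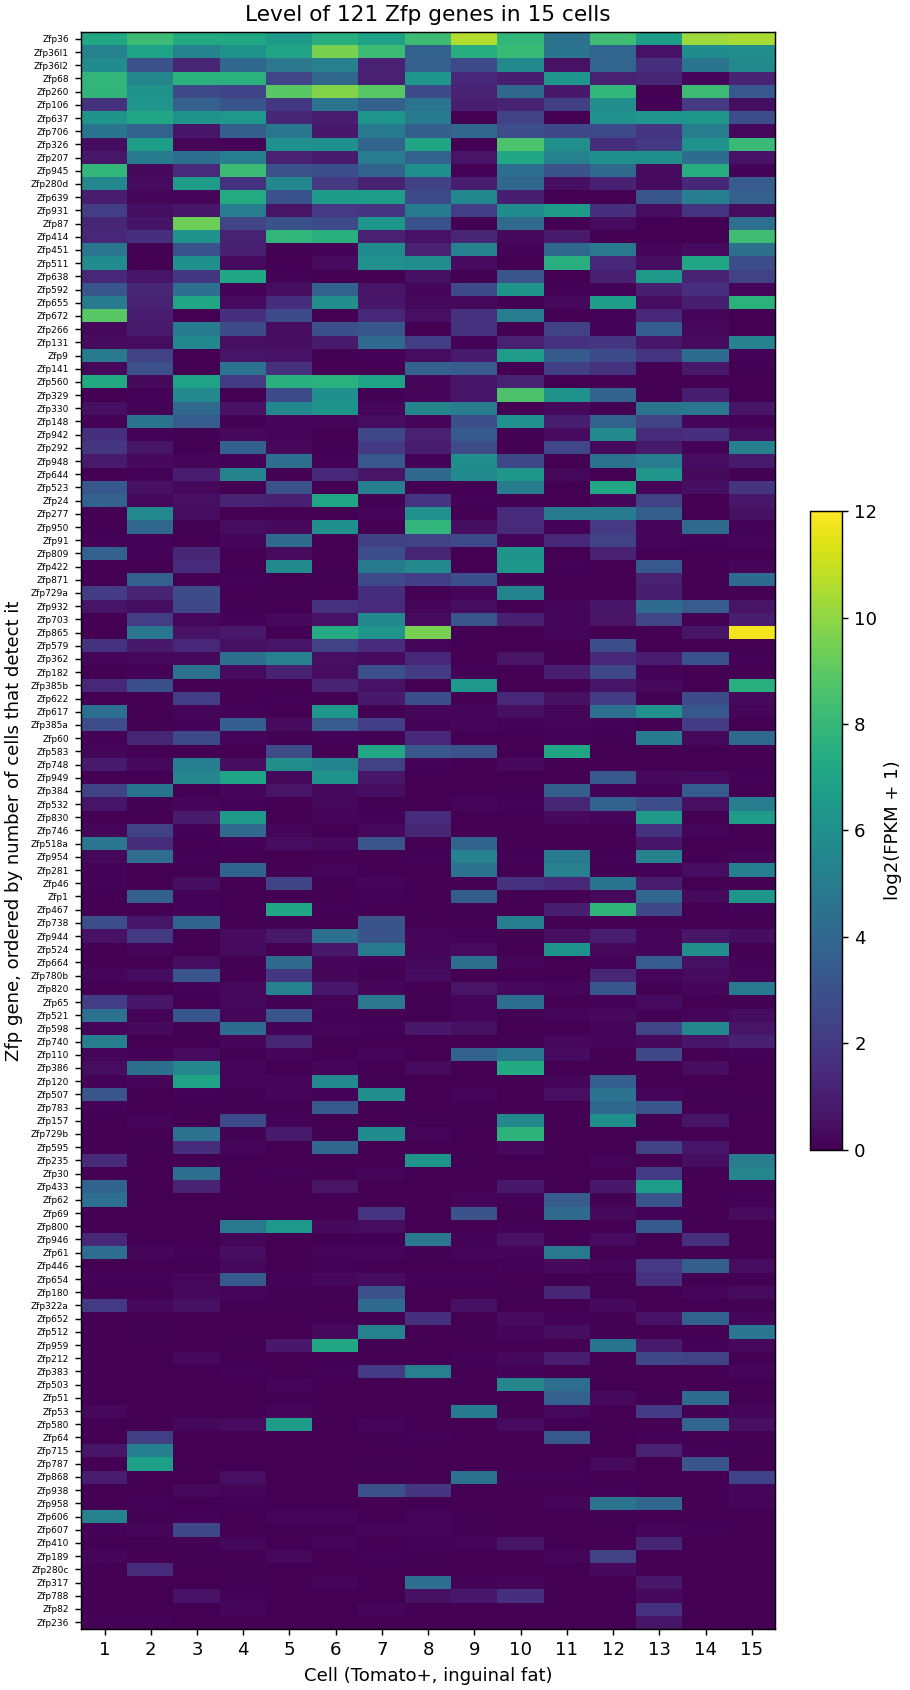
Level of each of the 121 Zfp genes (rows, ordered by the number of cells that detect them) in cells 1 to 15 (columns), coloured by log2(FPKM + 1). The top row is Zfp36, at 4.49 or more in every cell, followed by its relatives. These have dark cells, such as Zfp36l1 in cell 13 (0.58) and Zfp36l2 in cell 11 (0.60). Most rows below hold a few bright cells on a dark ground, such as Zfp865 with 11.81 in cell 15.

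Each cell detected between 32 and 52 of the 121 Zfp genes, with a median of 39. Cell 7 had the most (52, or 43.0%), followed by cells 13 (50), 12 (47) and 1 (45). Cell 15 had the fewest (32, or 26.4%), with cell 4 at 34 and cells 2, 6, 9 and 11 at 35. As a share of the 4369 detected rows of a cell, these numbers run from 0.732% to 1.19%. The order depends on the threshold for cell 13. At 5 FPKM it had 24 Zfp genes, where the cells ranged from 23 to 36, and cell 7 still had the most. Zfp genes were faint in cell 13: the median of those detected was 2.55, the lowest of the 15 cells, while cell 6 had the highest (5.40). Cell 13 also detected 17 of the 52 narrow genes, against 4 to 11 in the other cells. At 5 FPKM it had 6 of them, where the cells ranged from 3 to 9 with a median of 6. The same cell carried the mural markers given above other than Acta2. It was below 1 FPKM for Pdgfra and Prrx1, for Prrx1 like cells 3 and 12. Of its rows 1383 stood at the lowest value, close to the median of 1385 over cells. The part of its markers or of its lowest values in its Zfp count was not tested. The number of rows at the lowest value and the number of Zfp genes detected had a Spearman correlation of −0.38 over the 15 cells, given as a description.

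**Figure D3:**
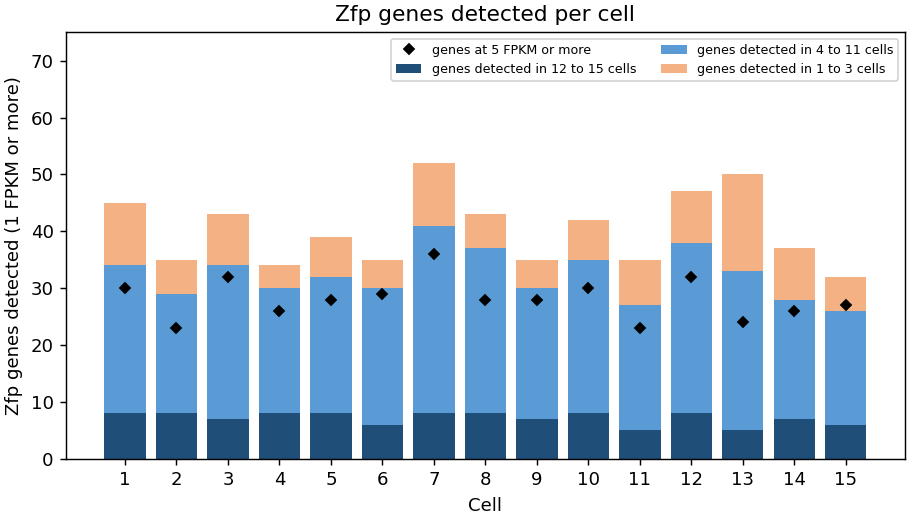
Number of Zfp genes with 1 FPKM or more in each cell (stacked bars, split by how many cells detect the gene) and number with 5 FPKM or more (diamonds). Bars run from 32 in cell 15 to 52 in cell 7, the narrow class is widest in cell 13 (17 genes), and the diamond of cell 13 (24) is among the lowest.

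The leading Zfp gene differed from cell to cell. Zfp36 led in cells 2, 9, 12, 13 and 14, with 8.22, 10.60, 8.28, 6.74 and 10.23. Zfp260, a C2H2 factor, led in cells 5 (8.95), 6 (9.78) and 7 (8.89). In cells 8 and 15 the leader was Zfp865 (9.55 and 11.81). The other leaders were Zfp672, Zfp87, Zfp945, Zfp329 and Zfp511, in cells 1, 3, 4, 10 and 11, at 8.88, 9.36, 8.24, 8.65 and 7.53. Counting where each gene had its highest value, cell 10 held the maximum of 16 Zfp genes and the other cells of 5 to 10.

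The messenger RNA decay genes of the Zfp36 family were among the most widely detected: 3 of their 4 listed members had a row, each detected in 14 or 15 cells, a breadth that Zfp68 alone of the C2H2 genes reached. Zfp36, which encodes tristetraprolin, ranged from 4.49 in cell 11 over a median of 7.50 to 10.60 in cell 9. It was detected in 15 of 15 cells (lower limit of the exact Clopper-Pearson 95% interval 78.2%, for counting error only). It stood above 10 in cells 9, 14 and 15, and the other 12 cells lay between 4.49 and 8.28. The gene lies at chr7:28376784-28380253 on the minus strand, and the antisense gene Gm44710 overlaps it.

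Zfp36l1, a close relative that also binds AU-rich messages, ranged from 0.58 in cell 13 over a median of 5.93 to 9.58 in cell 6. Cells 6, 7 and 10 were high (9.58, 8.22 and 8.09), and cell 13 was the only cell below 1 FPKM. Zfp36l2, the third relative, ranged from 0.60 in cell 11 over a median of 3.92 to 5.85 in cell 1. It was lowest in cells 11, 7 and 3 (0.60, 1.12 and 1.23). Each of the 2 was detected in 14 of 15 cells (93.3%, interval 68.1% to 99.8%, for counting error only). The 3 genes were not high in the same cells: their Spearman correlations over the 15 cells were 0.08 for Zfp36 with Zfp36l1, 0.28 for Zfp36 with Zfp36l2 and 0.23 for the other pair. Zfp36l1 overlaps Gm26669 on the opposite strand, and 37.9% of the 50-base words at its 3′ end also occur there, so its value is less certain.

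**Figure D4:**
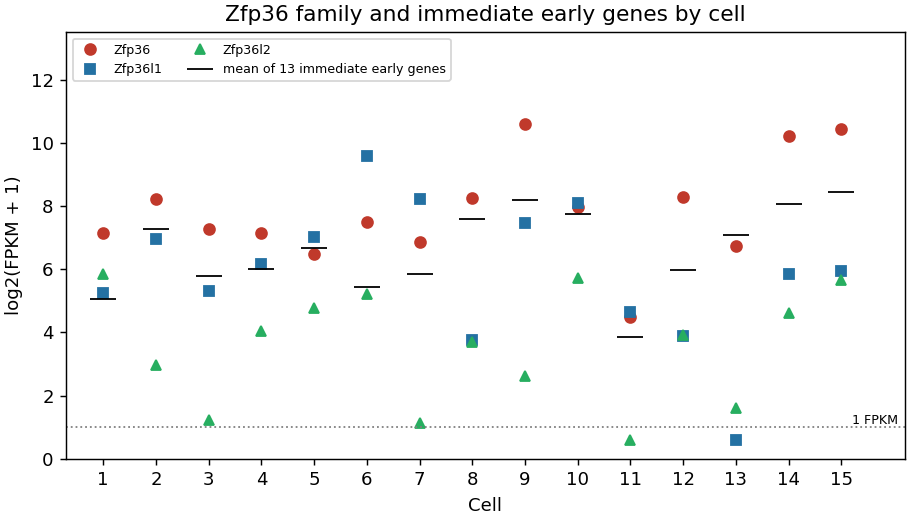
Level of Zfp36, Zfp36l1 and Zfp36l2 in each cell, with the mean of 13 immediate early genes as a black bar, in log2(FPKM + 1). Zfp36 is above 10 in cells 9, 14 and 15 and lowest in cell 11 (4.49), where the immediate early mean is lowest too (3.86), while Zfp36l1 is below the 1 FPKM line in cell 13 only.

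Zfp36 is itself known as an immediate early gene, a gene switched on within minutes of a stimulus without new protein. Over the 15 cells it was high where such genes were high. Its Spearman correlation with the mean of 13 immediate early genes was 0.70, and it was 0.80 with Junb, 0.75 with Egr1, 0.72 with Ier2 and 0.69 with Fos, Jun and Atf3. With Dusp1 it was 0.38, with Nr4a1 0.19, and with Klf2 it was −0.46. Of all Zfp genes it had the highest correlation with that mean, followed by Zfp871 at 0.49. The median over Zfp genes was −0.05, and Zfp579 was lowest at −0.71. For Zfp36l1 and Zfp36l2 the values were 0.10 and 0.23. This ranking sets genes of unlike breadth side by side. Zfp36 alone was detected in all 15 cells, against a median of 4 cells, so most other Zfp genes had many values near 0. All cells share the digestion at 37 °C, which was not varied, and the normalization, and the part of either in this relation was not tested. Without cell 11 the correlation of Zfp36 was 0.63, and without cells 9 and 15 it was 0.54. Without cells 1, 11 and 14 it was also 0.54. The immediate early mean was highest in cells 15, 9 and 14 (8.43, 8.20 and 8.05), the cells where Zfp36 exceeded 10.

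Messages that carry AU-rich elements and are known as targets of the Zfp36 proteins had their highest mean in cells 9 and 15. These 2 cells also had the highest Zfp36. In cell 14, the other cell with Zfp36 above 10, the mean was not high. Of 11 listed, 8 had a row and 6 were detected in 12 or more cells (26.6% of all rows were). Cells 9 and 15 had the highest means of the 8 (7.73 and 7.43), and the means of the remaining cells ran from 2.80 to 5.39. Cell 14, with Zfp36 at 10.23, had a mean of 4.27, below cells 2, 4, 8 and 10. The neutrophil chemokine gene Cxcl1 stood at 12.98 in cell 15, its highest value. Ier3, an early survival gene, was highest in cell 9 (11.49), and so were Il6 (9.80), Myc (10.04) and Ccl2 (13.69). Cxcl2 was highest in cell 15 (7.02). Single genes did not all follow the mean: Ptgs2 was highest in cell 10 (4.67) and Vegfa in cell 4 (5.75). The Spearman correlation of this mean with Zfp36 was 0.84 over 15 cells and 0.75 without cells 9 and 15, against 0.21 for Zfp36l1 and 0.43 for Zfp36l2. Several of these target genes are early response genes too. The CCR4-NOT complex and its partners, through which the Zfp36 proteins act, were detected about as widely as the table at large: of 20 listed genes 19 had a row, 10 were detected in 8 or more cells (46.8% of all rows were) and 3 in all 15 (12.1% of all rows). Those 3 were Btg1, Btg2 and Pabpc1 (medians 5.07, 6.19 and 7.79), while the scaffold Cnot1 was detected in 4 cells.

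The 30 bases around a serum response motif in front of Zfp36 are shown because the gene varied with the immediate early genes. Many of those genes are known targets of serum response factor. The part of this motif in the variation of Zfp36 was not tested. The motif searched was the CArG box, in the 250 bases before the RefSeq start of each gene on GRCm38.p6, and the box, a pattern that reads alike on both strands, is in capitals. The last base of the box lies 49 bases before the RefSeq start. The same bases lie within exon sequence of the longer span that GENCODE gives for the Zfp36 gene.
Zfp36 at chr7:28379267-28379296, minus strand: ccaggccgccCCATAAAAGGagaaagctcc

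A CArG box was found in 1.40% of 27025 such windows and in 2 of the 102 Zfp genes with a window, Zfp36 and Zfp644. It was in 0 of the 11 windows of immediate early genes that could be looked up, which says only that these letters are not in those windows. The Sp1-type motif GGGCGG, on either strand, was in 49.0% of the Zfp windows and 32.9% of all. One copy on the other strand lies in front of Zfp36, sharing 1 base with the CArG box. TATAAA went the other way, in 7 of the 102 Zfp windows (6.86%) and in 3504 of the 27025. CCAAT, on either strand, was in 42.2% of the Zfp windows and 34.5% of all. The Zfp windows had a median share of G and C bases of 54.6%, against 52.0% for all windows. All windows also include genes without a row here. The part of either in these motif shares was not tested.

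The broad C2H2 genes were detected widely but at uneven levels. Zfp68, a KRAB protein with 9 finger patterns, was detected in 14 cells and ranged from 0.17 over a median of 2.50 to 7.88. It stood at 7.88, 7.68 and 7.68 in cells 1, 3 and 4, and between 1.01 and 1.40 in 6 cells, so those 6 detections sit at the threshold. Zfp260, with 12 finger patterns and no KRAB stretch, was detected in 13 cells and ranged from 0.00 over 4.04 to 9.78. It was above 7.5 in cells 1, 5, 6, 7, 12 and 14 and at 0.00 in cell 13. Zfp637, with 6 finger patterns, was detected in 12 cells with a median of 6.06. Its values split: 8 cells lay between 6.06 and 7.21, and cells 9 and 11 were at 0.00.

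The remaining 2 broad genes are of other kinds. Zfp106, an RNA-binding protein needed by motor neurons in mice, was detected in 13 cells with a median of 2.29 and its highest value in cell 2 (6.28). Zfp706, a small protein of 76 residues with 1 finger pattern, was detected in 12 cells with a median of 3.61 and no value above 5.05. It is uncertain, since 45.0% of the 50-base words at its 3′ end occur in transcripts of other genes. Length matters for the order of levels, because FPKM divides by length while the kit reads the 3′ end. Of the 20 Zfp genes highest by median, 17 were still among the highest 20 when length was multiplied back, and Zfp36 led on both scales.

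The next genes by breadth were detected in 8 to 11 cells. Zfp326, part of a complex that links RNA polymerase II to splicing, was detected in 11 cells with a median of 5.96, high in cells 10 and 15 (8.60 and 8.14) and below 1 in cells 1, 3, 4 and 9. Zfp207, which binds the mitotic checkpoint protein Bub3, was detected in 11 cells with a median of 4.38 and its highest value in cell 10 (7.13). Zfp945, a KRAB protein with 18 finger patterns, was detected in 11 cells and was high in cells 4, 1 and 14 (8.24, 7.93 and 7.48). Zfp280d was detected in 11 cells, Zfp639 and Zfp931 in 10, and Zfp87, Zfp414 and Zfp451 in 9. Zfp451, a SUMO ligase, had a highest value of 5.77 in cell 7. Zfp414 shares 61.4% of its 3′ end words with Gm20507. Zfp511 and Zfp592 were detected in 8 cells each, and Zfp511 overlaps Tubgcp2 on the opposite strand.

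The 8 genes detected in 1 cell were spread over 7 cells, with 2 of them in cell 13. Zfp606 stood at 5.32 in cell 1, where its next highest value was 0.21, and Zfp317 at 4.39 in cell 8, with 0.78 next. These 2 were clear of the threshold. The others were lower: Zfp607 had 2.55 in cell 3, Zfp189 had 2.30 in cell 12, Zfp82 had 1.76 in cell 13, Zfp788 had 1.64 in cell 10, Zfp280c had 1.43 in cell 2 and Zfp410 had 1.22 in cell 13. For Zfp82 all 50-base words at the 3′ end also occur in Gm26920, and Zfp607 carries the symbol Zfp607a in the reference table. Zfp410, a factor known to activate the chromatin remodeller gene Chd4, was thus near the threshold, while Chd4 was detected in 11 cells with a median of 3.47. The gene detected in no cell was Zfp236, a protein with 30 finger patterns, with a highest value of 0.66 in cell 13.

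Some narrow or middle genes reached high values in single cells. Zfp865 stood at 11.81 in cell 15, the highest value of any Zfp gene, and cells 8, 6, 7 and 2 had 9.55, 7.40, 6.28 and 4.70, with the other 10 cells below 1. It shares exons with Ccdc106 on the same strand and Zfp784 on the opposite strand, and 36.1% of its 3′ end words are shared with Zfp784, so part of its value may belong to these. Zfp560, a KRAB protein, was between 6.94 and 7.66 in cells 1, 3, 5, 6 and 7, at 2.05 in cell 4 and 1.20 in cell 10, and below 1 in the other cells. Zfp748, another KRAB protein, was detected in cells 3, 5, 6 and 7 (5.16, 5.91, 5.40 and 2.34). The pair had the highest Spearman correlation of the 7260 pairs of Zfp genes (0.92), picked after the values were seen. They lie on chromosomes 9 and 13, and none of the 50-base words at the 3′ end of either occurs in another gene.

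Of the genes tied to the fat lineage, 5 of 8 listed had a row. Zfp638, a cofactor of C/EBP proteins in mouse adipogenesis, was detected in 8 cells and was high in cells 4 (7.15) and 13 (6.44), with at most 3.15 elsewhere. Its 3′ end shares 27.1% of its words with other transcripts. Zfp467, which favours fat over bone in mouse stromal cells, was detected in 4 cells, cells 12, 5, 13 and 11 (7.85, 7.17, 2.54 and 1.01). Zfp521, which opposes adipogenesis in mouse cells, was detected in 3 cells, cells 1, 3 and 5 (4.47, 3.20 and 3.18). The 2 opposing factors were detected together in cell 5 only, a cell with mural markers. Cell 13, which also carried mural markers, had Zfp521 at 0.08. With 4 and 3 cells, this overlap cannot say whether the 2 factors avoid each other. Zfp30 was detected in 3 cells and reached 5.46 (cell 15), and Zfp36 of this list is given above.

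Of 12 RNA and ribosome factors listed, 10 had a row, 5 were detected in 8 or more cells and 1 in 3 or fewer, where 46.8% and 20.9% of all rows were. Their median was 6.5 cells, near the 7 of all rows. Besides Zfp106, Zfp706, Zfp326, Zfp207 and Zfp638, these were Zfp622, a factor of large ribosomal subunit maturation (5 cells, up to 2.86), Zfp830, a spliceosome-associated protein (4 cells, up to 6.64), Zfp385a (5 cells, up to 3.57), Zfp385b (5 cells, up to 7.51) and Zfp598. Zfp598, the ubiquitin ligase of collided ribosomes, was detected in 3 cells, with 5.55 in cell 14. Zfp91, also a ubiquitin ligase, was detected in 6 cells at up to 4.17.

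Of 23 chromatin and transcription factors listed, 12 had a row. Of these, 1 was detected in 8 or more cells and 4 in 1 to 3, where 46.8% and 20.9% of all rows were. Their median was 4 cells, the same as all Zfp genes, against 7 for all rows. That 1 gene was Zfp592 (8 cells, up to 6.21). Zfp148, which binds GC-rich promoters, was detected in 7 cells and reached 6.06 (cell 10), and its relative Zfp281 in 4 cells and reached 5.22 (cell 11). Both were detected in cells 9 and 11, with Zfp148 at 2.88 and 1.02 and Zfp281 at 4.51 and 5.22. Zfp644, a partner of the G9a histone methyltransferase, was detected in 6 cells, highest in cell 10 (6.35). Zfp292 was detected in 6 cells, the co-repressor Zfp703 in 5, Zfp532 and Zfp518a in 4, Zfp652, Zfp322a and Zfp503 in 2, and Zfp410 in 1. Zfp703 was highest in cell 7 (5.58) and its relative Zfp503 in cell 10 (5.55).

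Of 12 genes listed for imprinting and retroelement control, 2 had a row. Zfp809, which silences retroviruses in mouse embryonic cells, was detected in 6 cells, and cells 10 and 1 were highest (6.19 and 3.71). Zfp932, which binds endogenous retroviruses in mouse, was detected in 5 cells at up to 4.20. The 3′ end of Zfp932 shares 61.9% of its words with Gm15446.

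Genes with more fingers were detected in fewer cells. Proteins were predicted from GENCODE M21 coding sequence for 120 of the 121 genes, and 114 held a C2H2 pattern. The 6 without one were detected in a median of 10.5 cells, and 3 of the 6 were the Zfp36 family. The 23 genes with 1 to 4 patterns were detected in a median of 5 cells, the 38 with 5 to 9 in 4, and the 53 with 10 or more in 3. Of these 53, 3 were detected in 8 or more cells and 27 in 3 or fewer. Of all rows, 46.8% were in 8 or more cells and 20.9% in 1 to 3. Levels where detected were closer: medians of 3.77, 3.71 and 3.42 for the 3 classes with fingers.

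**Figure D5:**
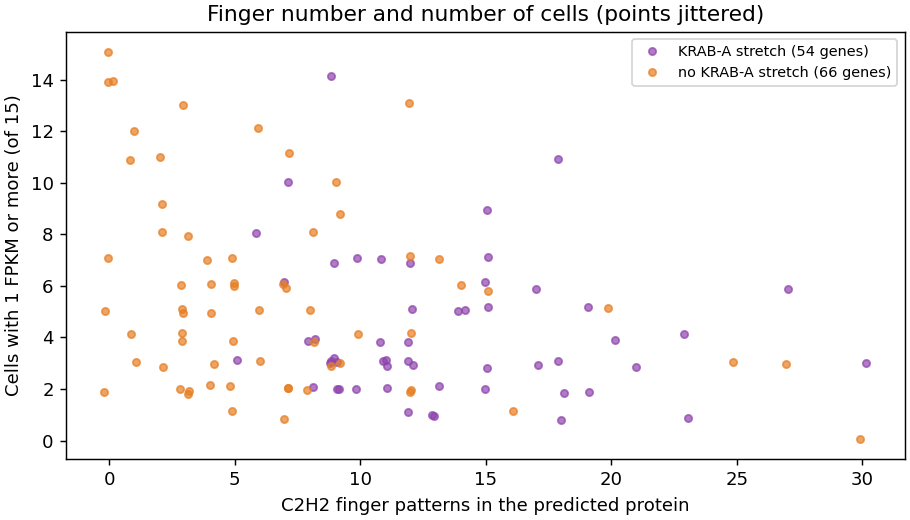
Number of C2H2 finger patterns in the predicted protein (horizontal axis) against the number of cells with 1 FPKM or more (vertical axis) for 120 Zfp genes, coloured by whether a KRAB-A stretch was found, with points jittered. Points at 12 or more cells lie at 12 or fewer fingers, and genes with 10 or more fingers have a median of 3 cells.

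A KRAB-A stretch was found in 54 of the 120 predicted proteins. These 54 genes were detected in a median of 3 cells, 5 of them in 8 or more, and the other 66 in a median of 5 cells, 16 of them in 8 or more. Every KRAB gene had at least 5 finger patterns (median 12), against a median of 5 in the rest, so this comparison does not separate finger number from KRAB. The 5 KRAB genes in 8 or more cells were Zfp68, Zfp945, Zfp931, Zfp87 and Zfp655. A cell detected between 9 and 22 of the KRAB genes. Of 19 listed genes of the KRAB silencing machinery 15 had a row, 8 of them detected in 8 or more cells, with a median of 8 cells, which is close to all rows (46.8% and a median of 7). The heterochromatin protein genes Cbx1 and Cbx3 were detected in 13 cells each and Trim28, the co-repressor that KRAB domains bind, in 9 (up to 8.94). Setdb1 was detected in 3 cells. All 14 genes of the NuRD remodelling complex had a row, and 9 of them were detected in 8 or more cells.

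Zfp genes often lie in clusters, and 38 of the 121 lay in 8 groups of 3 or more with gaps of at most 500 kb. Chromosome 7 held 28 Zfp genes, chromosome 17 held 14 and chromosome 6 held 10. The largest group, at chr17:21450374-22867134, held 8 genes, all with a KRAB-A stretch. Of these, Zfp945 was detected in 11 cells and the others in 2 to 7, and every cell detected at least 1 of the 8. The group at chr13:67312998-67729173 held 7 KRAB genes, Zfp595, Zfp87, Zfp748, Zfp729b, Zfp729a, Zfp738 and Zfp65, which were detected in a median of 4 cells, and 11 cells detected at least 1. Within it, Zfp729a, Zfp729b and Zfp738 were each highest in cell 10 (5.42, 7.75 and 5.16). Zfp729a and Zfp729b both share exons with Gm49345, but none of the 50-base words at their 3′ ends occurs in another gene, while Zfp738 shares 50.8% of its 3′ end words with Gm48095.

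As a set, neighbours resembled each other little. Over the 82 pairs within the groups the median Spearman correlation across cells was 0.11, against 0.00 over all pairs of Zfp genes. It was 0.27 over the 21 pairs of the chromosome 13 group. Single pairs of that group were higher. Zfp729b with Zfp748 and Zfp729a with Zfp738 each had 0.77, among the 10 highest of the 7260 pairs, picked after the values were seen. These correlations rest on 15 cells with many values near 0 and are descriptions. In all, 37 Zfp genes overlap an exon of another gene, 13 of them a protein-coding one, and 11 share 20% or more of their 3′ end words with another gene. The labels do not state how strand or shared reads were treated, so the values of those genes are uncertain.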

How the data were processed

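The deposited table holds 8446 rows and 15 cell columns, tied to the cells through the number in each name and title. Another 18 columns had no name and no values. Per the submitters' processing notes TopHat2, Cufflinks and GRCm38 were used, with versions not given in the sources used here. Libraries were made with a 3′ kit and Nextera XT, per the labels' protocols. The authors' deposited values are named FPKM but are on a log2 scale (largest value 13.69), and their sorted values differ by at most 0.0354 between cells above 0.2, so they had been quantile-normalized. The log2 base was inferred from the values: mean sums are 592948 FPKM per cell read as log2 and 12675749 read as natural logarithms. Depth is unknown. Detection, lists, correlations and finger patterns were computed in Python 3.11.15 with pandas 2.3.3, numpy 2.4.6 and scipy 1.17.1. No protein table was given, so proteins were translated from GENCODE M21 coding sequences instead of being read from one as first planned. Detection counts and protein patterns were tested on simulated data. A C2H2 pattern was a pair of cysteines, 12 residues and a pair of histidines, and a KRAB-A stretch either of its 2 conserved runs, which can miss diverged domains. Shared 3′ ends are words of 50 bases in the last 500 bases of the longest coding transcript. Of the 121 symbols 120 were the same in the reference table, which lists 416 such symbols; the rest were not analysed here. Named genes were the Zfp36 family, role list members, the 20 in most cells, those in 1 cell, and each cell's highest. The members and lists were chosen with earlier results of these data known. Alternatives were other thresholds, scales, cells left out and uncertain genes left out.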

Additional observations from a re-analysis of the deposited data

How the results depend on the processing

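No paired analysis was possible because the labels give 1 group of cells and no replicate number shared between groups. Of the recomputed values, 55 stayed within 1.5 times the reported count or, for the level of a gene, within 1 SD over the cells, 24 moved further and 0 reversed. At 5 FPKM, 2 genes were detected in 12 or more cells, 20 in exactly 1 and 8 in none, and the KRAB difference in median cells was 1 in place of 2. At 0.5 FPKM, 0 were detected in no cell. With any value above a cell's lowest counted, cells had 70 to 98 Zfp genes (median 88), a gene was on in a median of 10 cells, 54 in 12 or more, 0 in exactly 1 and 0 in none. Among the highest 25% of the rows of a cell there were 9 to 21 (median 13). Without cell 13, 3 genes were detected in no cell. Without cells 1, 11 and 14, 3 were detected in all 12 cells left, 20 in exactly 1 and 4 in none, and the KRAB difference was 1. These last alternatives count over fewer cells. Read as natural logarithms, the medians of Zfp36, Zfp36l1 and Zfp637 would be 10.82, 8.55 and 8.74, and that of Zfp36 with length multiplied back 9.29. Genes that vary widely between cells shifted more with length multiplied back and yet stayed within that SD: the median of Zfp68 went from 2.50 to 5.25 and that of Zfp260 from 4.04 to 6.50. Leaving out the 22 genes with shared 3′ ends or overlapping coding genes, chosen after seeing the data, left 99. Depth is unknown, so whether an undetected gene was absent or missed was not tested, and 15 cells from an unknown number of animals give no replicate error.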
